A study of Homo sapiens with 6 samples.

Results

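The genes described here are 49 components of the machinery that licenses, fires and copies DNA replication origins. They were chosen by symbol, from the origin recognition complex through the replicative helicase, polymerases, sliding clamp and lagging-strand enzymes to the fork checkpoint, and UNG, a uracil-DNA glycosylase, was included with them. All 49 were found among the 57820 gene rows of each table, and all 49 passed the expression filter. RNA was measured in U266, a cell line from a human multiple myeloma, a cancer of antibody-secreting plasma cells. The 3 control samples and 3 MYC samples are all U266 cells grown in the same serum-containing medium. The MYC samples were transduced with a lentivirus in which the EF1A promoter, active in most cell types, drives MYC. The labels do not say whether the control cells received a vector, whether each line is 1 clone, or whether separate cultures lie behind a group's samples, so the p-values measure only the spread between these samples, which may be technical. The design addresses how more MYC alters the transcriptome of this cell line.

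In each cell cycle, the origin recognition complex marks origins, and CDC6 and CDT1 load the ring of MCM proteins on DNA in G1, a step that geminin (GMNN) blocks later. In S phase the kinase CDC7 with DBF4 helps to turn the MCM ring into an active helicase by joining CDC45 and the GINS complex. Polymerase alpha with primase then starts each strand, the clamp PCNA is loaded by replication factor C, and polymerases epsilon and delta extend the strands. Many of these genes are known targets of the E2F transcription factors, and MYC binds DNA at E-boxes.

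Promoter sequences were available for 43 of the 49 genes, as windows from 250 bases before to 50 after the annotated start (RefSeq, GRCh38.p14). They were searched on both strands for 2 forms of the E2F motif, TTTGGCGC and TTTCCCGC, for the E-box CACGTG, and for CCAAT. Some genes had more than 1 annotated start and window, and a match in any window of a gene counted. Genes with more windows therefore had more room for a match. At least 1 of the 2 E2F forms was present in 20 of 43 (46.5%), against 4.45% of 10745 protein-coding genes tested that had a window. By expression result, it was present in 13 of 28 genes called higher in MYC (46.4%), 2 of 4 called lower and 5 of 11 not called (45.5%), and these shares were not tested against each other. The E-box was present in 9 of 43 (20.9%), against 12.4%, and was found in 5 of 28 genes called higher, 0 of 4 called lower and 4 of 11 not called. CCAAT was present in 27 of 43 (62.8%), against 43.9%. Matches may overlap, as the pair of CCAAT matches of POLE does. A match is a description of the letters and does not show binding. The sequences below are the 120 bases before the start, 5′ to 3′ on the gene's strand, with matches in capitals. Apart from MCM2 and FEN1, shown for the E-box, they are shown because an E2F form precedes genes that were higher, lower or not called. Among the printed genes with an E2F form, the higher and lower ones carry TTTCCCGC and those not called carry TTTGGCGC. TTTGGCGC was found in 6 of 28 genes called higher, 0 of 4 called lower and 3 of 11 not called. The first 3 belong to genes called higher: GINS2 (chr16:85688955-85689074, minus strand), RFC3 (chr13:33818029-33818148, plus strand) and ORC3 (chr6:87590015-87590134, plus strand).
GINS2: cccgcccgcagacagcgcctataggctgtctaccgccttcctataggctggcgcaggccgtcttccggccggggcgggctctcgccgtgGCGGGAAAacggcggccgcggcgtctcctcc
RFC3: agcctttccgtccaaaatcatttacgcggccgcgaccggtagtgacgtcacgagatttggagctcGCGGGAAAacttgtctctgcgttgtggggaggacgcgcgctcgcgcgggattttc
ORC3: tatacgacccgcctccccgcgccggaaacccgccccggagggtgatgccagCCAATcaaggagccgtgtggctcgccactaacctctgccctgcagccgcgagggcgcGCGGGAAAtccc

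The next belong to CDT1 (chr16:88803669-88803788, plus strand) and LIG1 (chr19:48170345-48170464, minus strand), called lower, and to MCM6 (chr2:135876444-135876563, minus strand) and POLE (chr12:132687343-132687462, minus strand), not called.
CDT1: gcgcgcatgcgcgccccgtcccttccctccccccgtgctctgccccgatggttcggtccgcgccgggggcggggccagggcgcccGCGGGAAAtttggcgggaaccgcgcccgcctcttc
LIG1: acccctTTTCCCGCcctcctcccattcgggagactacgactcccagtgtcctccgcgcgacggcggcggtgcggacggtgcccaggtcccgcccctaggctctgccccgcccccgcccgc
MCM6: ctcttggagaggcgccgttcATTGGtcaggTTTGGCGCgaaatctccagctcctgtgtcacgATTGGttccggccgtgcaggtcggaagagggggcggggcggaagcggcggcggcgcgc
POLE: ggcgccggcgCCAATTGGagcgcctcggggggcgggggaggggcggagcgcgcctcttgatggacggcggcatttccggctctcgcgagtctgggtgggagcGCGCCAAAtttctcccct

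The last 2 carry the E-box close to the start: MCM2 (chr3:127598291-127598410, plus strand), not called, and FEN1 (chr11:61792791-61792910, plus strand), called higher.
MCM2: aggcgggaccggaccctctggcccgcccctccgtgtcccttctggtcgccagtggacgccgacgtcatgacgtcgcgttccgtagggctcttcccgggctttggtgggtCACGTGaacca
FEN1: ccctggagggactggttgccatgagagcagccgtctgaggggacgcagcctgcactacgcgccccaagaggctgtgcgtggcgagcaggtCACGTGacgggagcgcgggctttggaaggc

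Summed counts per library ran from 27139978 to 158667309, and every replication gene had at least 370 reads in every library. MYC itself stood at 3.91, 4.16 and 4.51 CPM (each gene's share of its library's counts, with TMM factors for library composition) in the controls and at 105, 110.3 and 92.1 CPM in the MYC libraries, a log2 fold change of 4.60 ± 0.10 (SE, adjusted p = 9.71e-08, edgeR). Reads of the vector and of the cells' own MYC were not told apart. Of 9 plasma cell markers, IGHE, the heavy chain gene of the IgE that U266 secretes, averaged 3203 TPM (a share of transcripts, which allows for gene length) in control and 767.9 TPM in MYC. CD38 was at only 0.43 TPM in control. Of the 9, 6 were called lower with MYC, beside 32.1% of all genes. The 9 summed to 5175 to 5373 TPM in control and 1932 to 2434 TPM in MYC. Markers of B cells, T and NK cells, myeloid, stromal and epithelial cells summed to at most 14.3 TPM per list and library. The fold changes of all genes followed GC content (Spearman's rho -0.56 over 17202 genes, which are not independent replicates). Each library's deviation from the mean of all 6 libraries rose with GC in the 3 controls (rho 0.38 to 0.62). It fell with GC in the 3 MYC libraries (-0.63 to -0.31). Deviations from a shared mean must balance across libraries, so these opposite signs are not a separate result from the fold changes. Preparation and sequencing batches are not labelled, so they cannot be told apart from the groups. The results for the replication genes are therefore also given with a GC offset. It removes the part of each library's trend of expression with GC percentage that differs from the mean trend of the 6 libraries.

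Most replication genes were modestly higher with MYC. Of the 49, 38 passed the test in either direction, against 60.8% of all genes: 33 rose, 5 fell and 11 did not pass (edgeR quasi-likelihood test, adjusted p under 0.05 over all 17679 genes tested). Across all genes tested 28.8% were called higher and 32.1% lower, against 67.3% and 10.2% of the replication genes. The median log2 fold change was 0.28 for the replication genes and -0.02 for all genes. The differences were small: 6 genes rose by at least 1.5-fold, which 11.4% of all genes did, and 4 fell by at least 1.5-fold, which 21.8% did. Only CDT1 and POLD1 changed by at least 2-fold, as 18.0% of all genes did. Every MYC library lay above every control for 37 genes and below for 5, against 32.1% and 35.1% of all genes. In bulk RNA, more cells in S phase and more RNA per cell cannot be told apart. With the GC offset 29 rose and 4 fell, against 29.6% and 28.7% of all genes, and the median was 0.13 (0.00 for all genes). Of these, 23 were higher and 2 lower both ways, against 20.7% and 19.4% of all genes, and 0 were called in opposite directions, against 3.49%. The counts changed with the centring of the offset, an alternative chosen after seeing the data: with one that kept each library's mean over all genes, and so left the median of all genes at -0.15, 13 rose and 8 fell, with 3387 of all genes higher and 7074 lower.

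**Figure D1:**
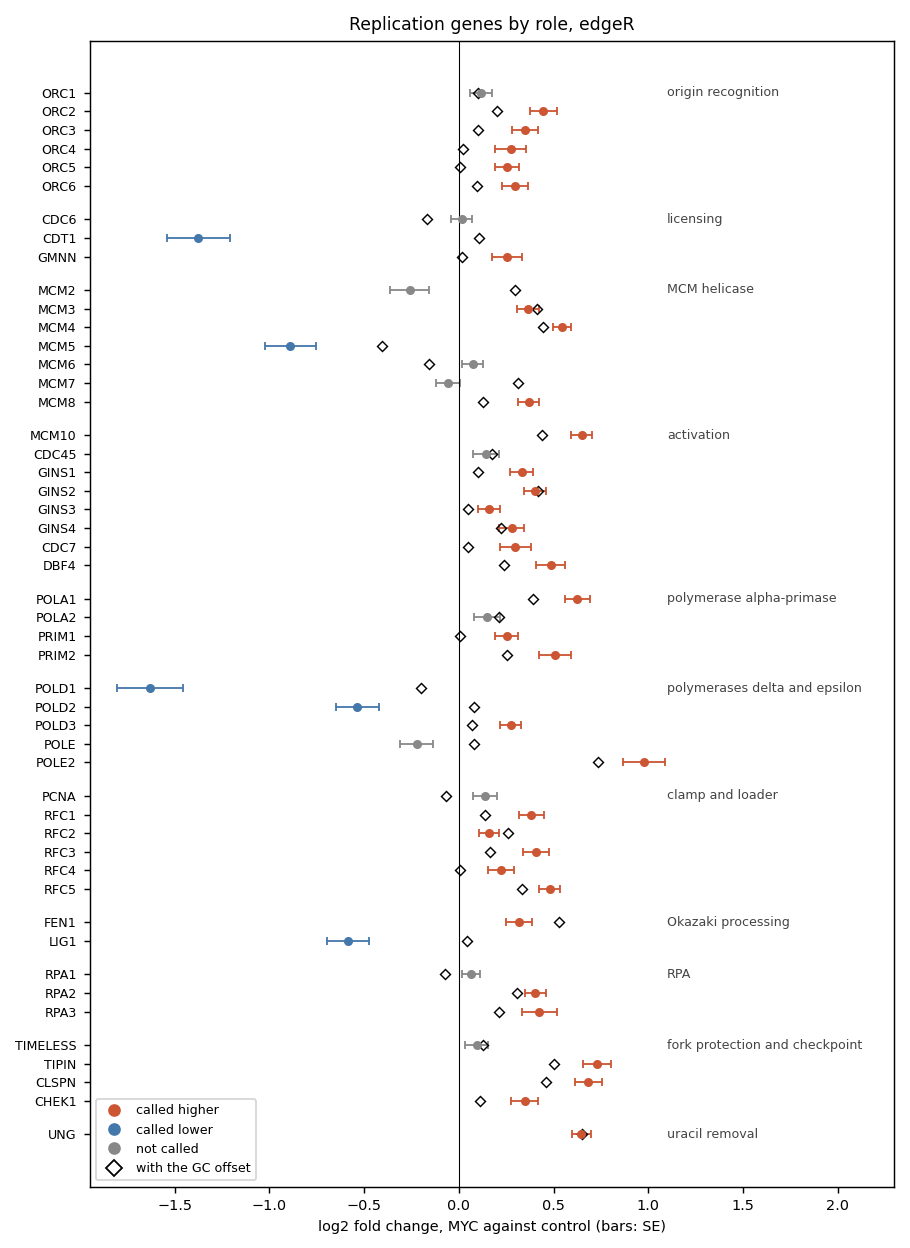
The log2 fold change of MYC against control is plotted for each of the 49 genes, grouped by role, with the standard error as bars and colour for the call; open diamonds give the value with the GC offset. Of the filled points, 33 are called higher and 5 lower, and CDT1 and POLD1 lie far to the left. Their diamonds lie much further right, at 0.11 for CDT1, not called, and at -0.20 for POLD1, still called lower.

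The 6 subunits of the origin recognition complex were all higher in every MYC library than in any control, as 32.1% of all genes were. By the test 5 rose, beside 28.8% of all genes. ORC2 rose most, from 51.5, 45.5 and 48.3 CPM in the controls to 63.1, 63.8 and 70.9 CPM in the MYC libraries. That is a difference of 0.45 ± 0.07 on the log2 scale (SE here and below; adjusted p = 0.000783, edgeR). ORC3 rose by 0.35 ± 0.07, ORC6 by 0.30 ± 0.07, ORC4 by 0.27 ± 0.08 and ORC5 by 0.25 ± 0.07. ORC1, the subunit whose level follows the cell cycle, was at 74.0, 75.3 and 75.7 CPM in control and 86.0, 81.3 and 77.0 CPM in MYC, and its 0.12 ± 0.06 did not pass (adjusted p = 0.111, edgeR). Its log2 fold change was the smallest of the complex. Under the GC offset ORC2 (0.20), ORC3 (0.10) and ORC1 (0.10) were called higher, and the calls of ORC4 (0.02), ORC5 (0.01) and ORC6 (0.09) ended, as they did on log2(TPM + 1) (0.22, 0.21 and 0.28). The call of ORC4 also ended without control replicate 2 (0.21) or 3 (0.25) and that of ORC5 without control replicate 3 (0.23), and ORC1 was called without MYC replicate 3 (0.16).

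The 3 licensing genes diverged. CDT1 (ENSG00000167513.4), the loader of the MCM ring, was at 78.4, 85.7 and 70.1 CPM in control and at 35.9, 32.9 and 21.8 CPM in MYC. All MYC values were below all control values, a difference of -1.38 ± 0.17 on the log2 scale (adjusted p = 0.000167, edgeR). CDT1 transcripts are among the richest in GC of the 49 (65.2%), and with the GC offset the direction turned, to 0.11, which was not called (adjusted p = 0.195, edgeR). GMNN, the inhibitor of CDT1, went from 49.7, 41.5 and 42.7 CPM to 55.2, 51.6 and 53.0 CPM. GMNN rose by 0.25 ± 0.08 (adjusted p = 0.0208, edgeR). Its call was lost under the GC offset (0.02) and in fits lacking control replicate 2 (0.19), control replicate 3 (0.22) or MYC replicate 1 (0.23). Per length, the TPM of CDT1 over that of GMNN was 0.629, 0.849 and 0.669 in control and 0.201, 0.194 and 0.125 in MYC. The pair was chosen after its values were seen, and the ratio was not adjusted for GC content. With the GC offset neither CDT1 (0.11) nor GMNN (0.02) was called. CDC6, which loads the helicase with CDT1, overlapped between the groups, spanning 62.7 to 68.2 CPM in the controls and 64.5 to 66.2 CPM with MYC. CDC6 was called lower with the GC offset, at -0.17 (adjusted p = 0.00308, edgeR).

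Among the helicase genes, MCM3 and MCM4 rose and MCM5 fell, so the subunits of the ring did not move together. MCM4 was at 217, 209 and 214 CPM in control and at 312, 312 and 310.0 CPM in MYC. The groups were far apart for the spread within them, and the log2 fold change was 0.55 ± 0.05 (adjusted p = 3.69e-05, edgeR). MCM3 rose by 0.37 ± 0.06, from 306, 332 and 324 CPM to 418, 419.9 and 403 CPM. MCM8, a relative of the ring subunits that acts in homologous recombination, rose by 0.37 ± 0.06, from 67.0 ± 2.49 to 86.5 ± 3.07 CPM (SD, n = 3). Under the offset MCM4 rose by 0.45, MCM3 by 0.41 and MCM8 by 0.13. MCM5 was at 224, 254 and 230.4 CPM in control and at 151, 132 and 99.5 CPM in MYC. It fell by 0.89 ± 0.14 on the log2 scale (adjusted p = 0.000576, edgeR), and by 0.41 with the GC offset. That decrease was not seen per length: the deposited TPM of MCM5 was 115 ± 13 in control and 103 ± 6.22 in MYC, and on log2(TPM + 1) the call ended (-0.15).

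MCM2, MCM6 and MCM7 overlapped between the groups. MCM2 was at 464, 505 and 485 CPM in control and 467, 401 and 346 CPM in MYC, a difference of -0.26 ± 0.10 on the log2 scale (adjusted p = 0.0546, edgeR) that passed without MYC replicate 1 (-0.37), with limma-voom (-0.27) and on log2(TPM + 1) (-0.31). MCM2 also passed with total counts (-0.28), with no filter (-0.28), with a mean CPM of at least 5 (-0.28) and on log2(TPM + 0.1) (-0.31). MYC replicate 1 lay within the control range for MCM2, and MYC replicates 2 and 3 lay below it. MCM7 (-0.06 ± 0.07) and MCM6 (0.07 ± 0.06) did not pass. Under the offset MCM2 (0.30) and MCM7 (0.31) were called higher and MCM6 (-0.16) lower, so the direction of these 3 genes depended on the offset.

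The level per length summed over MCM2 to MCM7 was 967 ± 13.2 TPM in control and 994 ± 29.2 TPM in MYC, which overlap. The make-up of that sum differed. MCM4 took 13.4%, 13.02% and 14.1% of it in control and 17.5%, 16.5% and 19.8% in MYC, and MCM3 took 15.3 to 16.2% and 18.8 to 20.3%. MCM2 took 18.9 to 19.8% in control and 13.5 to 16.9% in MYC, and MCM7, the most abundant, 23.1 to 24.9% and 21.7 to 21.8%. MCM6 overlapped, at 14.5 to 16.1% and 14.4 to 15.9%, as did MCM5. These shares were not adjusted for GC content and were not tested.

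**Figure D2:**
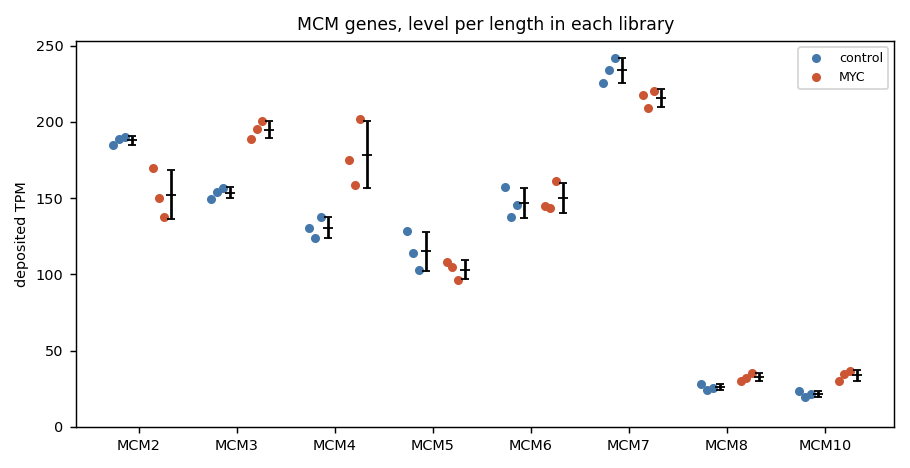
Deposited TPM of the MCM genes is plotted for each control and MYC library, with the mean and SD of 3 libraries beside the points. MCM3, MCM4, MCM8 and MCM10 sit above control in all 3 MYC libraries, MCM2 and MCM7 sit below, and MCM5 and MCM6 overlap.

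Of the 8 genes that turn the loaded ring into a moving helicase, 7 rose and none fell, beside 28.8% and 32.1% of all genes. All 8 lay above control in every MYC library, as 32.1% of all genes did. MCM10, needed for helicase activation, was at 49, 46.7 and 49.2 CPM in control and at 72.8, 75.5 and 78.8 CPM in MYC. It rose by 0.65 ± 0.06 (adjusted p = 3.42e-05, edgeR), the largest increase in this group. DBF4, the activating subunit of the CDC7 kinase, rose by 0.48 ± 0.08, from 66.8, 57.6 and 62.1 CPM to 81.4, 86.2 and 93.1 CPM. CDC7 itself rose by 0.30 ± 0.08. GINS2 rose by 0.40 ± 0.06, from 38.6, 37.4 and 36.2 CPM to 51.2, 48.4 and 48.7 CPM. The other GINS subunits rose less, GINS1 by 0.33 ± 0.06, GINS4 by 0.28 ± 0.06 and GINS3 by 0.16 ± 0.06. CDC45, the partner of GINS and the MCM ring, reached 0.14 ± 0.07 and did not pass (adjusted p = 0.0945, edgeR), but was called with the GC offset (0.18) and without MYC replicate 3 (0.18).

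Under the GC offset MCM10 (0.44), GINS2 (0.42), DBF4 (0.24), GINS4 (0.22) and CDC45 were called higher, and the calls of GINS1 (0.10), GINS3 (0.05) and CDC7 (0.05) ended. GINS4 turned to -0.07 on log2(TPM + 1), where the calls of DBF4 (0.31), GINS1 (0.20) and GINS3 (0.02) ended. The call of GINS3 also ended when any library other than MYC replicate 3 was left out (0.13 to 0.16), and that of CDC7 without control replicate 2 (0.24).

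Polymerase alpha and primase, which together make the RNA-DNA primer, rose in 3 of 4 subunits, beside 28.8% of all genes called higher. POLA1, the catalytic subunit, was at 52.3, 48.5 and 51.8 CPM in control and at 73.5, 78.2 and 83.5 CPM in MYC. It rose by 0.63 ± 0.07 (adjusted p = 7.94e-05, edgeR), and by 0.39 with the GC offset. PRIM2, the large primase subunit, rose by 0.51 ± 0.09, from 20.02, 16.6 and 19.3 CPM to 25.3, 26.2 and 27.9 CPM, and by 0.25 with the offset. PRIM1, the catalytic primase subunit, rose by 0.25 ± 0.06, a call that ended with the GC offset (0.01) and on log2(TPM + 1) (0.22). POLA2 overlapped between the groups in CPM, at 38.7 to 41.4 and 41.1 to 46.9, and its 0.15 ± 0.07 did not pass (adjusted p = 0.0871, edgeR). POLA2 was called higher with the GC offset (0.21), with the effective length offset (0.43), on log2(TPM + 1) (0.38) and without MYC replicate 3 (0.20).

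The subunits of polymerases delta and epsilon differed most among themselves. POLE2 (ENSG00000100479.8), an accessory subunit of polymerase epsilon, had the largest increase of the 49 and, in control, the lowest TPM of them (8.98 ± 2.09, SD, n = 3). It was at 9.003, 6.83 and 7.24 CPM in control and 14, 15.6 and 15.5 CPM in MYC. The groups were well apart, by 0.98 ± 0.11 on the log2 scale (adjusted p = 0.000121, edgeR), and 0.73 with the GC offset. POLE, the catalytic subunit, was at 108, 124 and 119 CPM and at 109, 103 and 88.5 CPM, and its -0.22 ± 0.09 did not pass (adjusted p = 0.053, edgeR). It was called lower without control replicate 1 (-0.30) or MYC replicate 1 (-0.28) and on log2(TPM + 1) (-0.21). The same held on log2(TPM + 0.1) (-0.22), with total counts (-0.24), with limma-voom (-0.23) and with no filter (-0.24). It also held with a mean CPM of at least 5 (-0.24) and with the effective length offset (-0.19). With the GC offset POLE turned to 0.08, not called. The TPM of POLE2 over that of POLE was 0.365, 0.216 and 0.275 in control and 0.554, 0.665 and 0.641 in MYC. This pair was chosen after its values were seen, and the ratio was not adjusted for GC content.

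POLD1 (ENSG00000062822.8), the catalytic subunit of polymerase delta, had the largest decrease of the 49. It was at 91.2, 99.5 and 85.1 CPM in control and at 37.6, 30.7 and 21.4 CPM in MYC, a difference of -1.63 ± 0.17 on the log2 scale (adjusted p = 8.73e-05, edgeR). Its GC content was 64.9%, and with the GC offset the decrease was far smaller, -0.20, though still called (adjusted p = 0.0229, edgeR). POLD2, the subunit that joins POLD1 to the rest of the enzyme, fell by 0.54 ± 0.11, from 323, 365 and 354 CPM to 281, 239 and 200 CPM (adjusted p = 0.00352, edgeR). In TPM it was the most abundant of the 49 in control, at 444 ± 16.4, and second to PCNA in MYC, at 256 ± 43.5. Under the GC offset POLD2 turned to 0.08, not called. POLD3 moved the other way, rising by 0.27 ± 0.05 from 51.1 ± 1.19 to 61.8 ± 1.30 CPM (SD, n = 3), a call that ended with the GC offset (0.07) and on log2(TPM + 1) (0.23). The TPM of POLD1 over that of POLD3 was 3.06, 3.62 and 3.29 in control and 1.38, 1.11 and 0.922 in MYC. This pair was also chosen after the values were seen, and the ratio was not adjusted for GC content. With the GC offset the log2 fold changes were -0.20 for POLD1 and 0.07 for POLD3.

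PCNA, the sliding clamp, changed little, and the loader subunits rose. PCNA was at 269.7, 248 and 242 CPM in control and at 292, 270.4 and 273 CPM in MYC. Every MYC value was above every control value, the lowest by under 1 CPM, and the log2 fold change of 0.14 ± 0.06 did not pass (adjusted p = 0.0892, edgeR), but did without control replicate 1 (0.16). Under the offset PCNA stood at -0.07, not called, and in TPM the groups overlapped. RFC5 rose by 0.48 ± 0.06, from 45.9, 43.7 and 43.3 CPM to 63.1, 60.6 and 61.7 CPM (adjusted p = 0.000122, edgeR). RFC3 rose by 0.41 ± 0.07, RFC1, the large subunit, by 0.38 ± 0.07, RFC4 by 0.22 ± 0.07 and RFC2 by 0.16 ± 0.05. With the offset RFC5 (0.33), RFC2 (0.26), RFC3 (0.16) and RFC1 (0.14) were called higher, and the call of RFC4 ended (0.00). On log2(TPM + 1) the calls of RFC4 (0.20) and RFC2 (0.09) ended. Without control replicate 2 or 3 the call of RFC4 ended (0.18 and 0.22). The call of RFC2 ended when any library other than MYC replicate 3 was left out (0.13 to 0.17).

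The lagging-strand enzymes went opposite ways. FEN1, the flap endonuclease that trims Okazaki fragments, rose from 223, 229 and 227 CPM to 304, 286 and 258 CPM. All MYC values were above control, by 0.32 ± 0.07 on the log2 scale (adjusted p = 0.00341, edgeR), and 0.53 with the GC offset. LIG1, the ligase that seals the fragments, was at 78.0, 87.6 and 85.7 CPM in control and at 64.3, 57.4 and 46.2 CPM in MYC. It fell by 0.59 ± 0.11 on the log2 scale (adjusted p = 0.002, edgeR), a call that ended with the GC offset, where the direction turned (0.05), and on log2(TPM + 1) (-0.12). In TPM, LIG1 overlapped between the groups, at 64.4 to 77.6 and 61.9 to 71.2.

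Replication protein A coats single-stranded DNA behind the helicase. RPA2 rose by 0.40 ± 0.05, from 147, 139 and 139 CPM to 194, 181 and 187 CPM (adjusted p = 0.000293, edgeR). RPA3 rose by 0.43 ± 0.09, from 42.5, 36.2 and 33.2 CPM to 49.6, 51.9 and 48.6 CPM. RPA1, the large DNA-binding subunit, averaged 140.4 ± 3.04 CPM in the controls and 147 ± 1.36 CPM in the MYC libraries (SD, n = 3), with a log2 fold change of 0.06 ± 0.05 that did not pass (adjusted p = 0.288, edgeR). Under the offset RPA2 (0.31) and RPA3 (0.21) were called higher and RPA1 (-0.07) was not called.

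Genes that protect the fork and signal its stalling rose in 3 of 4 cases, beside 28.8% of all genes called higher. TIPIN (ENSG00000075131.5), the partner of TIMELESS in the fork protection complex, rose from 30.6, 26.4 and 26.3 CPM to 44.5, 46.5 and 46.7 CPM. The log2 difference of 0.73 ± 0.07 (adjusted p = 6.87e-05, edgeR) was second only to POLE2 among the 49, and was 0.50 with the GC offset. TIPIN also shares exon bases with RPL9P25, whose reads may be split with it. CLSPN, the adaptor that brings CHEK1 to its activating kinase, rose by 0.68 ± 0.07, from 59.4, 54.95 and 59.95 CPM to 88.5, 90.5 and 101 CPM, and by 0.46 with the offset. The checkpoint kinase CHEK1 rose by 0.35 ± 0.07, from 42.3, 37.6 and 39.6 CPM to 47.3, 50.7 and 53.9 CPM, and by 0.11 with the offset. TIMELESS overlapped between the groups, at 172 to 182 and 176 to 198 CPM. Its 0.09 ± 0.06 did not pass (adjusted p = 0.208, edgeR), but was called with the GC offset (0.13) and without MYC replicate 3 (0.14).

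UNG (ENSG00000076248.6), which removes uracil from new DNA, rose from 108, 107 and 105 CPM to 169, 169.8 and 163 CPM. The log2 fold change was 0.65 ± 0.05 (adjusted p = 1.89e-05, edgeR) and was the same with the GC offset, 0.65.

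**Figure D3:**
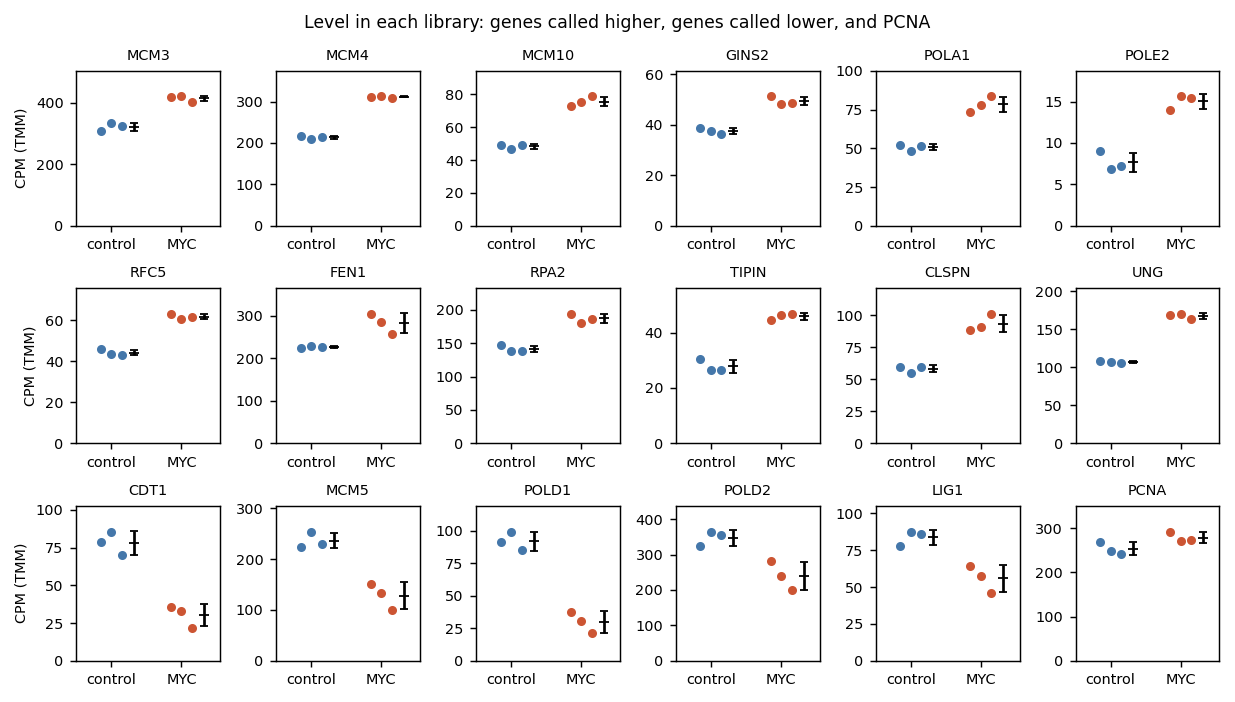
CPM in each control and MYC library is plotted from 0 for 12 genes called higher, the 5 called lower (CDT1, MCM5, POLD1, POLD2 and LIG1) and PCNA, with mean and SD of 3 libraries. In the 5 lower genes MYC replicate 3 is lowest and the MYC libraries are spread widely, while UNG and MCM4 show tight groups.

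Across the main test and 21 alternatives, 12 of the 33 increases and 1 of the 5 decreases kept their direction and call throughout. The 12 were MCM3, MCM4, MCM10, GINS2, POLA1, POLE2, RFC5, FEN1, RPA2, TIPIN, CLSPN and UNG, and the decrease was POLD1. Those 13 are a share of the 49 close to that of all genes tested, of which 27.1% kept a call in 1 direction in every setting that tested them. By direction, 2115 of all 17679 genes were higher throughout and 2678 lower throughout.

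The 5 decreases were all in transcripts rich in GC. Of the 8 replication genes with at least 55% GC, 5 fell and none rose, and of the 5002 genes tested in that class 3542 fell and 323 rose. Of the 21 replication genes under 45% GC, 20 rose and none fell, against 2725 and 480 of 5701 genes in that class. In the class between, 13 of 20 rose and none fell, against 1951 and 1502 of 6499. The median log2 fold changes of the replication genes in the low, middle and high class were 0.37, 0.28 and -0.56, and those of all genes 0.23, 0.04 and -0.74. With the GC offset the medians of the replication genes were 0.13, 0.22 and 0.08, and those of all genes -0.01, -0.01 and 0.02. Over the 49 genes Spearman's rho between GC content and log2 fold change was -0.59 without the offset and 0.05 with it, as a description of genes that share the same libraries.

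**Figure D4:**
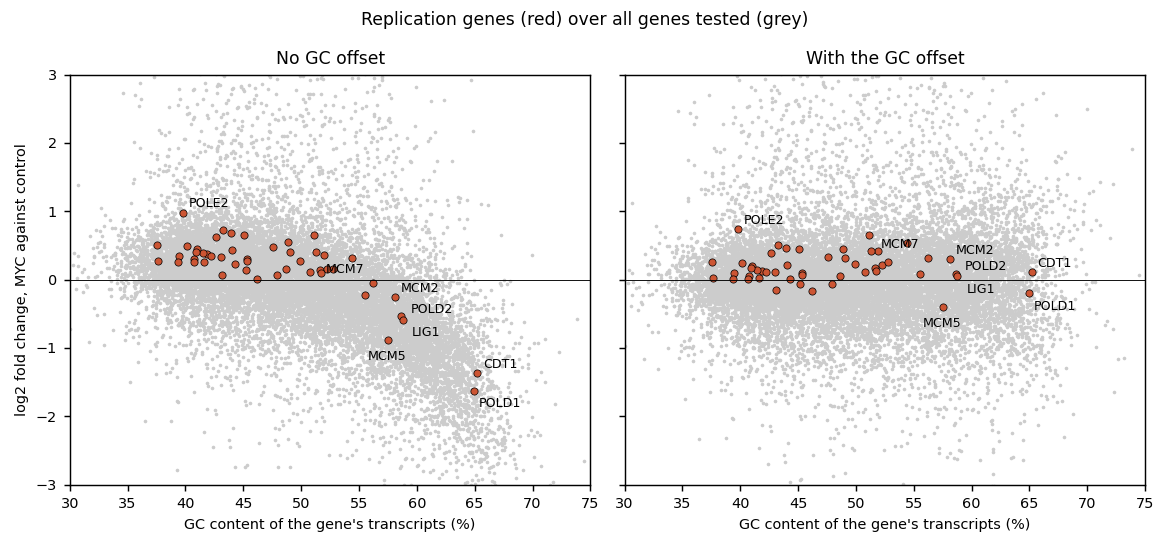
Log2 fold change of MYC against control is plotted against mean transcript GC percentage, without the GC offset on the left and with it on the right, for the 49 replication genes (red) and all genes tested (grey); points beyond the axis limits are not drawn. On the left CDT1 and POLD1 follow the falling cloud at high GC, and on the right CDT1 lies above 0 and MCM5 is the lowest of the 49.

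RSEM estimates an effective length for each gene in each library from the transcripts it assigns reads to, so it moves with the mix of isoforms assigned. It differed by at least 1.2-fold between group means in 6 of the 49 genes, against 11.1% of all genes tested. MCM5 was at 2340, 2813 and 2939 bases in control and at 1689, 1574 and 1376 bases in MYC. LIG1 went from 1623, 1424 and 1474 to 1092, 1068 and 991 bases, and POLD1 from 1547, 1566 and 1403 to 1236, 1246 and 1015 bases. POLA2 was also shorter in MYC, while CDT1 and GINS4 were longer, CDT1 going from 2425, 2373 and 2332 to 3011, 3024 and 2998 bases. The groups did not overlap for any of these 6 genes, which were picked by the difference between group means. That lack of overlap is therefore not a separate result. With an offset for effective length 31 replication genes rose and 4 fell, beside 4623 and 5125 of all 17679 genes. MCM5 (-0.12) and LIG1 (-0.09) were then no longer called.

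**Figure D5:**
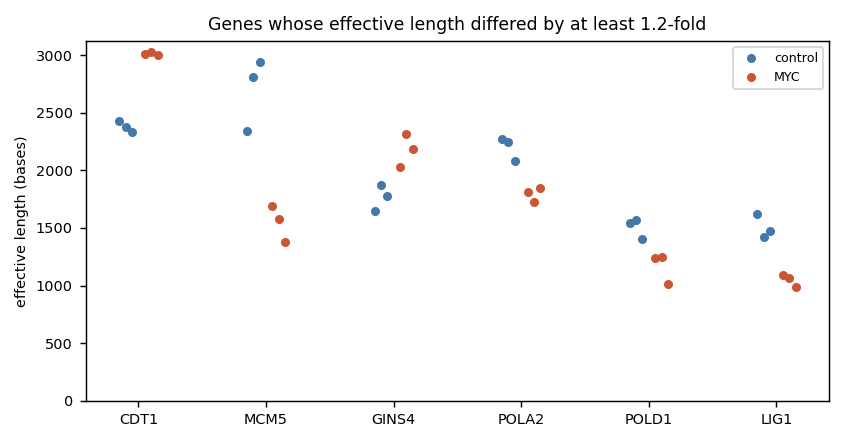
Effective length in bases, as deposited, is plotted for each library for the 6 replication genes in which group means differed by at least 1.2-fold. MCM5, POLA2, POLD1 and LIG1 are shorter in all 3 MYC libraries, and CDT1 and GINS4 are longer.

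A wider list of 55 other replication genes, of which 54 had a row and were tested, was tested the same way. Of these 31 rose and 12 fell, beside 28.8% and 32.1% of all genes, with a median log2 fold change of 0.22. With the GC offset 27 were higher and 12 lower, beside 29.6% and 28.7% of all genes, at a median of 0.12. These were not all the same genes as without it. On log2(TPM + 1), 19 rose. The 6 increases with the smallest adjusted p were TOP2A, a topoisomerase (1.89-fold), POLE4, a polymerase epsilon subunit (2.05-fold), SUPT16H, a subunit of the histone chaperone FACT (1.48-fold), WDHD1, which links polymerase alpha to the helicase (1.603-fold), PCLAF, a PCNA-binding protein (1.62-fold), and TICRR, an origin firing factor (1.49-fold). After the GC offset TOP2A to TICRR, in that order, were 1.59-fold, 1.96-fold, 1.28-fold, 1.35-fold, 1.37-fold and 1.57-fold higher. The 6 decreases with the smallest adjusted p were CHTF18, a clamp loader subunit (3.58-fold lower), the helicase RECQL4 (3.59-fold), LRWD1, which binds the origin recognition complex (3.07-fold), the helicase RTEL1 (1.94-fold), RAD9A, a subunit of the checkpoint clamp (2.16-fold), and POLD4, a polymerase delta subunit (2.81-fold). After the GC offset CHTF18 was 1.14-fold lower and no longer called, RECQL4 1.29-fold, LRWD1 1.32-fold, RAD9A 1.15-fold and POLD4 1.54-fold lower, and RTEL1 turned to 1.12-fold higher. CHAF1A (-0.35 to 0.10 on the log2 scale) and ASF1B (-0.23 to 0.51), named after their values were seen, also went from called lower to called higher.

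Other lists of genes differed between the groups as well. The G2/M list had 15 members, of which 12 were called higher and 2 lower, beside 28.8% and 32.1% of all genes, and its summed level was 845 to 917 TPM in control and 1169 to 1320 TPM in MYC. After the GC offset 14 were higher and 1 lower, beside 29.6% and 28.7% of all genes, and AURKB went from called lower (-0.21) to called higher (0.15). The 7 replication-dependent histone genes, whose normal transcripts end without a poly-A tail, went the other way. None were called higher and 6 were called lower, beside 28.8% and 32.1% of all genes. The 7 genes summed to 1115 to 1148 TPM in control and 672 to 750.1 TPM in MYC. After the GC offset 1 was higher and 5 lower, beside 29.6% and 28.7% of all genes, and H2BC12 went from called lower (-0.28) to called higher (0.67). AURKB and H2BC12 were named after their values were seen. Of the 9 plasma cell markers 1 was called higher and 6 lower, beside 28.8% and 32.1% of all genes. After the GC offset 2 were higher and 7 lower, beside 29.6% and 28.7% of all genes. The part of these differences in the results for the replication genes was not tested. For comparison, the level summed over the 49 replication genes was 3454 to 3709 TPM in control and 3658 to 3856 TPM in MYC, which overlap.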

How the data were processed

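Poly-A RNA-seq libraries of 3 control and 3 MYC samples were analysed. The submitters' processing notes name GRCh37, TopHat2 and cutadapt, and tool versions and gene models were not given in the sources used here. RSEM tables were deposited, per the file headers, with an expected count per gene, a TPM value scaled for effective length and depth, and an effective length, another value in bases per gene and library. Per the labels' protocols the library kit was a NEBNext Ultra RNA kit. No strand use in counting is stated, so antisense reads were not told apart: 21 of the 49 genes share exon bases with another gene (GENCODE 29), 5 of them at least 500 bases (GINS3, GINS4, MCM2, POLA2 and TIPIN), and 8 have named pseudogenes (DBF4, FEN1, PCNA, POLD2, RFC3, RFC5, RPA2 and UNG), which makes their values less certain.

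Identifiers were matched to symbols without version (51996 of 57820). Deposited expected counts, rounded, entered edgeR 4.0.16 (R 4.3.3; default filter, TMM, group only, quasi-likelihood F test, Benjamini-Hochberg adjustment). The SE derives from the F statistic. On simulated counts for 17679 genes of this comparison, the share of changed genes recovered was 67.2% at 1.5-fold, 89.6% at 2-fold and 98.5% at 4-fold, and 9 of 179 calls were unchanged genes. Depth varied 5.85-fold. The spread between libraries is the error given, and counts without molecular identifiers carry no counting interval here. Libraries of a group differed by more than counting error (chi-square divided by its degrees of freedom, 8.74 to 43.0).

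Alternatives were RLE factors, total counts, DESeq2 1.42.0, limma 3.58.1 (voom, and trend on log2 TPM with pseudocounts 1 and 0.1), no filter, mean CPM of at least 5, offsets for effective length and GC content (loess, span 0.4, TMM recomputed), a replicate block, dropping MYC with the 20 most abundant genes, and dropping each library in turn. GC percentages are those of GENCODE 29 transcripts, matched to each gene's deposited transcript identifiers without version and weighted by length. The members, gene lists, motifs and tests were chosen with earlier results of these data known. Values per library are given, by role, for selected called genes with the largest changes and for some of those whose call or direction changes. Of the 55 other replication genes, up to 6 per direction with the smallest adjusted p were named.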

Additional observations from a re-analysis of the deposited data

How the results depend on the processing

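Leaving out each library in turn gave 27 to 37 replication genes higher and 5 to 7 lower, 23 to 31 and 10 to 12 of the other replication genes, and 4184 to 5076 and 4925 to 5809 of all genes. The replicate numbers were not taken to pair the samples, since residual correlations of same-numbered libraries were -0.05, 0.08 and 0.11. With the replicate block 31 replication genes were called higher and 5 lower (25 and 11 of the other replication genes, 4649 and 5380 of all genes). With the replicate block and GC offset together the counts were 27 and 4 (29 and 12, 5214 and 5028). Of the other replication genes 19 were higher with either TPM pseudocount, and with a mean CPM of at least 5, where fewer genes were tested, 3694 genes were lower.

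The turns listed here are those of genes named by the naming rule and called in at least 1 of the settings compared. POLE (0.079), PCNA (-0.066) and RPA1 (-0.072) also changed sign under the GC offset but were called neither with nor without it. Direction turned under the GC offset for CDC6 (-0.17), CDT1 (0.11), MCM2 (0.30), MCM6 (-0.16), MCM7 (0.31), POLD2 (0.080), LIG1 (0.045) and RTEL1 (0.16). The replicate block combined with that offset turned CDC6 (-0.17), CDT1 (0.10), MCM2 (0.29), MCM6 (-0.16), MCM7 (0.31), POLD2 (0.078), LIG1 (0.044) and RTEL1 (0.16). A pair of further centrings of the GC offset was chosen after seeing the data. Where TMM factors were not recomputed, 24 replication genes were higher and 5 lower, and ORC4 (-0.018), ORC5 (-0.031), CDC6 (-0.21), CDT1 (0.068), GMNN (-0.022), MCM2 (0.26), MCM6 (-0.19), MCM7 (0.27), PRIM1 (-0.030), POLD2 (0.043), RFC4 (-0.034), LIG1 (0.0076), RPA1 (-0.11) and RTEL1 (0.12) turned. Where each library mean was kept, 13 replication genes were higher and 8 lower, 16 and 20 of the other replication genes, and 3387 and 7074 of all genes. In that setting ORC3 (-0.040), ORC4 (-0.12), ORC5 (-0.13), ORC6 (-0.050), CDC6 (-0.31), GMNN (-0.12), MCM6 (-0.30), MCM7 (0.17), MCM8 (-0.013), GINS1 (-0.037), GINS3 (-0.093), CDC7 (-0.092), PRIM1 (-0.13), POLD3 (-0.072), PCNA (-0.21), RFC1 (-0.0015), RFC4 (-0.14), RPA1 (-0.21), CHEK1 (-0.031) and RTEL1 (0.019) turned. GINS4 turned to -0.069 and -0.071 for TPM with a pseudocount of 1 and of 0.1, and to -0.039 for the effective length offset. The cause of these changes was not tested. The simulated recovery of 67.2% at 1.5-fold came from far fewer changed genes than were called in the data, so it does not give the recovery here. A gene not called was not shown to be unchanged.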
